A study of Mus musculus with 16 samples.

Results

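The miRNA described here is miR-210, measured as both of its mature arms, mmu-miR-210-3p and mmu-miR-210-5p, which are 2 of the 1881 mouse miRNAs on the array. Both were taken by name from the scanner files, and the miRNA was selected on the miR-210-3p signal of 1 SAMP1-50wk kidney, which stood out from the others, so the values of that group are given as a description, without a test. The renal cortex of 16 male mice was profiled, 1 mouse per array, on single-colour Agilent miRNA arrays. The mice were of the senescence-accelerated strain SAMP1 or of the senescence-resistant strain SAMR1, and were untreated on normal chow at 10 or 50 weeks of age, which gave 4 groups of 4, named by strain and age (SAMP1-50wk for the old senescence-accelerated mice, for example). SAMP1 is an inbred strain that ages early as a whole animal, so a strain difference reflects the whole genetic background, and each mouse was sampled at a single age.

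miR-210 is the miRNA most widely known for its response to low oxygen. The transcription factor HIF-1, which is stabilised when oxygen falls, activates its gene, and the mature 3p strand then represses, among others, the iron-sulfur cluster scaffold protein ISCU and the receptor ligand ephrin-A3, which lowers mitochondrial respiration and favours vessel growth. In the kidney it is known from ischaemia and reperfusion. The renal cortex holds mostly tubular epithelium, and the array measured whole tissue, so more cells of a type cannot be told apart from more of the miRNA per cell.

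The 3p arm carries the known function, and both arms are shown because the probes of the array read their 3′ parts. In the RefSeq sequences (GRCm38.p6) both arms come from the gene Mir210, a hairpin of 110 bases on the minus strand at chr7:141221384-141221493, in which the 3p arm lies at chr7:141221407-141221428 and the 5p arm at chr7:141221445-141221466. The hairpin overlaps no other gene of the annotation table and lies between Rassf7, 2726 bases away, and Gm51460, 6713 bases away. The seed, bases 2 to 8 from the 5′ end, which pairs with target mRNAs, is in capitals.
miR-210-3p: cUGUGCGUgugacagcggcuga
miR-210-5p: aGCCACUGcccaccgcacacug
No other mature miRNA name among the 1679 of the reference table has either of these seeds, so each arm stands alone in its seed family.

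Each arm was read by 2 probes, with 15 spots per probe on every array. The probes for miR-210-3p, printed as the array holds them, are complementary to bases 7 to 22 and to bases 8 to 22 of the miRNA, and leave out most of the seed.
A_54_P1443: TCAGCCGCTGTCACAC
A_54_P1444: TCAGCCGCTGTCACA
The probes for miR-210-5p pair with bases 11 to 22 and 10 to 22 of that arm.
A_54_P00005066: CAGTGTGCGGTG
A_54_P00005067: CAGTGTGCGGTGG
No other mature miRNA of the table holds the stretch that any of these probes reads.

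Only the 3p arm of miR-210 gave a signal in the renal cortex. miR-210-3p was flagged as detected by the scanner software on 16 of 16 arrays, whereas miR-210-5p was detected on 0 of 16 and was listed at 0.1, the value given to undetected miRNAs. For miR-210-5p, 0 of 480 spots were well above background, and the spot means of its probes lay between -2.23 and 1.63 intensity units on the 16 arrays, around the background level. A level of miR-210-5p under the background of the array would not have been seen.

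The deposited total gene signal, which sums a miRNA's probes in intensity units, was close to 10 for miR-210-3p on most arrays. In SAMR1-10wk it was 9.77, 9.86, 9.58 and 8.69 in animals 1, 4, 5 and 7. In SAMR1-50wk it was 8.93, 6.79, 6.20 and 9.51 in animals 2, 6, 9 and 12. In SAMP1-10wk it was 9.25, 12.5, 11.6 and 11.1 in animals 3, 4, 5 and 6. These 12 kidneys form a single narrow band in which all 3 groups overlap. In SAMP1-50wk the signal was 12.8, 46.8, 13.9 and 10.6 in animals 1, 2, 4 and 11. Animal 2 lay apart from the 15 other mice, and the remaining kidneys of its group lay inside the band or just above it. On 4 arrays, those of SAMP1-10wk animal 4 and SAMP1-50wk animals 1, 2 and 4, the scanner software had summed the spots with a factor of 0.268 to 0.272, against 0.210 to 0.212 on the other 12, which raises every miRNA on those arrays alike and is removed by the scaling described next. All values given below with no scaling keep this higher factor, which no SAMR1 array had.

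**Figure D1:**
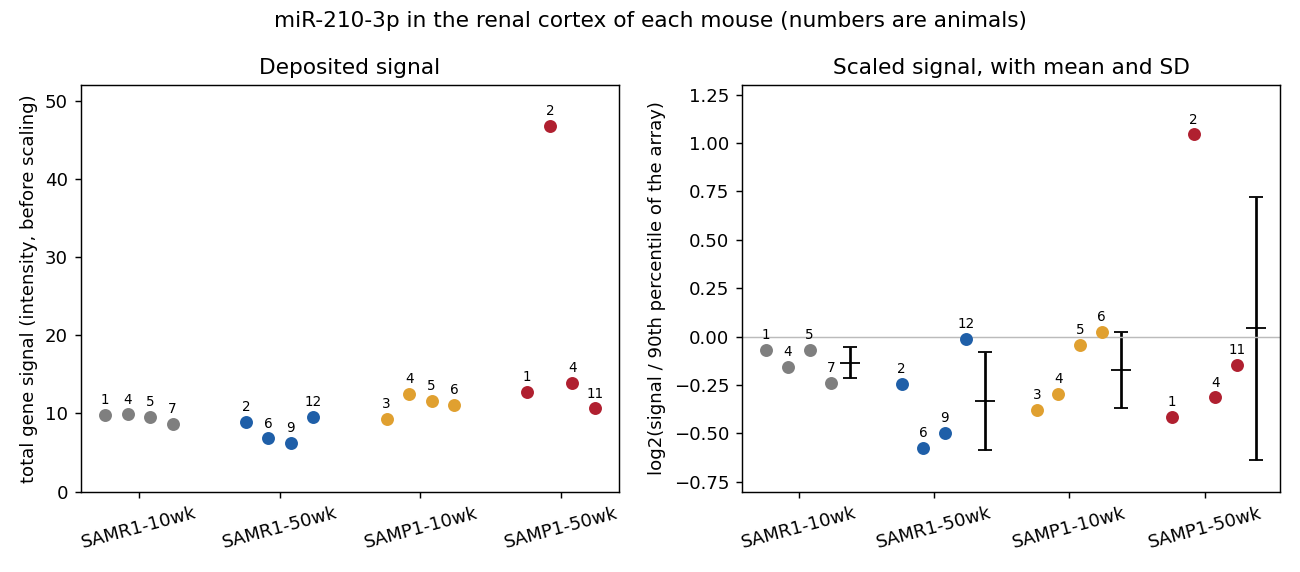
Signal of miR-210-3p in the renal cortex of each mouse. The left panel plots the deposited total gene signal (intensity, linear axis from 0) and the right panel the log2 signal relative to the array's 90th percentile; points are mice, numbers above them the animals, and bars the mean and SD of 4 mice. SAMP1-50wk animal 2 stands at 46.8 and at 1.04, above every other mouse in both panels.

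To compare arrays, each signal was divided by the 90th percentile of all miRNAs of its array and taken as log2, so that 0 marks a miRNA as bright as that percentile. On this scale the young mice were at -0.13 ± 0.08 (SD, n = 4) in SAMR1-10wk, with a range of -0.24 to -0.07, and at -0.17 ± 0.19 in SAMP1-10wk, with a range of -0.38 to 0.03. The old SAMR1-50wk mice were at -0.33 ± 0.26, with a range of -0.57 to -0.01. All 3 ranges overlapped. SAMP1-50wk had the highest mean and the widest spread, 0.04 ± 0.68, with -0.42, 1.04, -0.31 and -0.14 in animals 1, 2, 4 and 11. Without animal 2 its mean was -0.29 ± 0.14 (n = 3), which lies between those of SAMP1-10wk and SAMR1-50wk. From the highest mean to the lowest the order was thus old SAMP1, young SAMR1, young SAMP1 and old SAMR1, with the ranges of each pair of neighbours overlapping, and the first place rested on 1 mouse. Among the miRNAs detected on its array, ordered by signal, miR-210-3p was number 128 of 445 in SAMP1-50wk animal 2, and between number 186 and number 245 on the other 15 arrays.

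The first comparison asked whether the strains differ in young mice. miR-210-3p did not pass the test in SAMP1-10wk against SAMR1-10wk, with a log2 difference of -0.04 (SE 0.25, adjusted p = 0.936 from limma over 381 miRNAs; exact two-sided permutation test, p = 0.714, where the smallest p that 4 against 4 mice allow is 0.0286). The direction itself was unsettled, since the difference was 0.030 without SAMP1-10wk animal 3 and 0.0020 without animal 4. It was 0.23 with no scaling, which keeps the higher summing factor of SAMP1-10wk animal 4. Across all miRNAs, 5 of 381, or 1.31%, passed an adjusted p of 0.05 with more than a 2-fold change, all of them higher in SAMP1-10wk. The SE of this fit takes in the spread of SAMP1-50wk animal 2, because all 4 groups share 1 estimate of the variance.

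The second comparison asked what changes with age in the resistant strain. miR-210-3p did not pass the test in SAMR1-50wk against SAMR1-10wk either, with a log2 difference of -0.20 (SE 0.25, adjusted p = 0.740 from limma; exact two-sided permutation test, p = 0.229). The difference was below 0 under every alternative run and with each array left out, but its size moved, to -0.12 without SAMR1-50wk animal 6, -0.31 without animal 12, -0.035 after normexp background correction and -1.10 with the animal number as a replicate block (adjusted p = 0.361 from limma). Here too 5 of 381 miRNAs, or 1.31%, were called, 3 higher and 2 lower at 50 weeks. All 10-week arrays were on one slide and all 50-week arrays on the other, so age and slide cannot be told apart. On both slides the SAMP1 arrays lay in array row 1 and the SAMR1 arrays in row 2, so strain and array row cannot be told apart either.

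For SAMP1-50wk the differences are given without a test. The log2 difference of miR-210-3p was 0.22 against SAMP1-10wk and 0.37 against SAMR1-50wk. They were 0.10 and 0.13 after normexp background correction and 0.64 and 1.16 with no scaling. Both rested on animal 2, without which they were -0.12 and 0.04. The other 3 kidneys of 50-week SAMP1 mice thus had miR-210-3p levels inside the range of the other groups.

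SAMP1-50wk animal 2 exceeded the mean of the other 3 kidneys of its group by 1.34 on the log2 scale, which is 2.52-fold. After the scaling to the median of the miRNAs detected on all arrays, the excess was 1.31, but it was 0.59 after normexp background correction with an offset of 50, which draws dim signals together, and 1.92 with no scaling. The other 15 arrays spanned -0.57 to 0.03, and the largest excess of any other mouse over the rest of its own group was 0.43, in SAMR1-50wk animal 12.

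Both probes of miR-210-3p showed the excess in each of their spots. The longer probe, A_54_P1443, had a processed spot signal of 105.0 ± 6.38 (SD over 15 spots) in animal 2, with a lowest spot of 96.2, whereas its means on the other 15 arrays were 18.5 to 34.8 and its highest single spot there was 43.5. The shorter probe, A_54_P1444, had 66.9 ± 4.83 in animal 2, with a lowest spot of 57.8, against means of 10.7 to 20.6 and a highest single spot of 29.4 elsewhere. Before scaling, animal 2 was therefore 3.35-fold and 3.64-fold above the mean of the other 3 kidneys by the longer and the shorter probe. The spots of 1 array share a single RNA sample, so their SD is the error of the reading and says nothing about the spread between mice. The ratio of the longer to the shorter probe was 1.57 in animal 2, inside the 1.42 to 2.13 of the other arrays, so the probes kept their usual proportion. No spot was saturated.

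**Figure D2:**
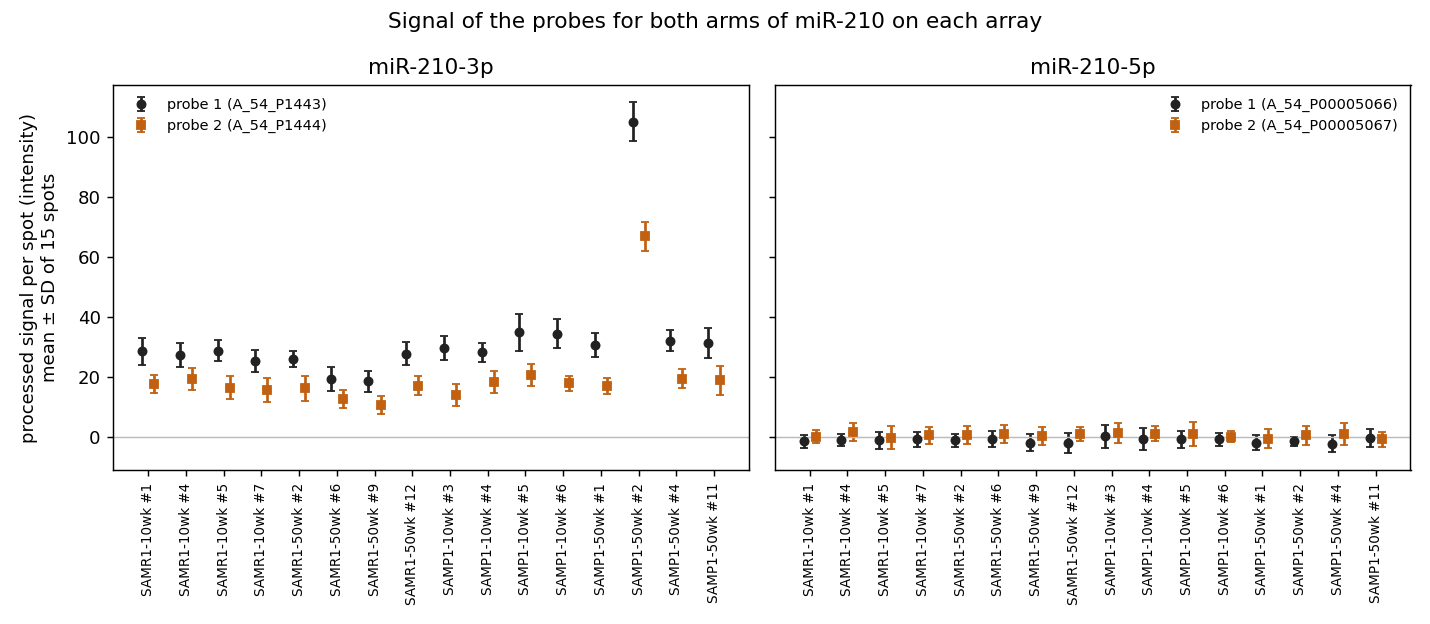
Processed signal per spot (intensity, linear axis) of the 2 probes for each arm of miR-210 on each of the 16 arrays; points are means and bars SDs of 15 spots of 1 array. Both miR-210-3p probes stand apart in SAMP1-50wk animal 2, at 105.0 and 66.9, and both miR-210-5p probes lie around 0 on all arrays.

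The array of this kidney was among the brighter ones. It had the most miRNAs detected, 445 against 352 to 407 on the others, and the highest 90th percentile, 22.7 against 8.76 to 17.3. Its median correlation with the arrays of its own group was 0.988 across miRNAs, the lowest of the 16 arrays, whose medians reached 0.995. Of the 322 miRNAs detected on all 16 arrays, 42, or 13.0%, had their highest scaled value in this kidney and 117 their lowest. SAMR1-50wk animals 2, 9 and 12 had more highest values, 63, 65 and 46, whereas no other kidney had more than 37 lowest values. The median miRNA differed from the rest of the group by -0.02 and the SD of the differences was 0.41, the widest of the 16 kidneys, whose SDs began at 0.17. The part of array brightness in the miR-210-3p value was not tested beyond the scalings.

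Set among the 322 miRNAs, miR-210-3p had the second largest excess in SAMP1-50wk animal 2 under the main scaling. Over 2-fold excesses were seen for 5 miRNAs, or 1.55%, with miR-210-3p itself among them. The others were miR-8110 (1.43 on the log2 scale), miR-21a-5p (1.18), miR-3473b (1.08) and miR-211-3p (1.07), and miR-155-5p followed at 1.00. After normexp background correction the dim miR-211-3p and miR-155-5p exceeded the rest by 0.41 and 0.50, and miR-210-3p by 0.59, which is under 2-fold. The brighter miR-8110, miR-21a-5p and miR-3473b were then at 1.36, 1.48 and 1.33, above miR-210-3p, so its rank depends on the processing. With no scaling miR-211-3p and miR-155-5p were at 1.65 and 1.58, miR-210-3p at 1.92, and the brighter miR-8110, miR-21a-5p and miR-3473b at 2.01, 1.76 and 1.67. miR-21a-5p, an abundant miRNA known to rise in injured and fibrotic kidney, had a deposited signal of 5690 in animal 2 and of 1492 to 1912 in the other 3 kidneys. miR-155-5p, an miRNA of activated immune cells that is also raised by hypoxia in some cells, had 49.8 against 12.6 to 19.6. All 6 were at their highest of the 16 arrays in this kidney. Their mature sequences from RefSeq, with the seed in capitals, are shown to compare them with miR-210-3p.
miR-8110: aAGCGUGGauugggggggggg
miR-21a-5p: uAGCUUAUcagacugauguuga
miR-3473b: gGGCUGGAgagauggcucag
miR-211-3p: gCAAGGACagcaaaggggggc
miR-155-5p: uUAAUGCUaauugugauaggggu
None shares its seed with miR-210-3p or with another of the set. Their genes lie on chromosomes 8, 11, 10, 7 and 16, in the order printed, and miR-211-3p, on the chromosome of Mir210, is far from it, at chr7:64205868-64205888.

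At the other end, the miRNA with the largest deficit in this kidney was miR-6980-3p, at -1.27. It was followed by miR-3968 (-0.84), miR-150-5p (-0.82), miR-7671-3p (-0.82) and miR-455-3p (-0.80). miR-150-5p, a miRNA of mature lymphocytes, was -0.58 in animal 2 and 0.22 to 0.28 in the other 3 kidneys. The other 4 were at their lowest of the 16 arrays there. The sizes moved with the processing: after normexp the 5 deficits lay between -0.41 and -0.17, with miR-6980-3p the smallest, and with no scaling between -0.69 and -0.21. Over all alternatives in background correction and scaling, the largest deficits were -1.97 for miR-6980-3p and -1.21 for miR-3968.

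**Figure D3:**
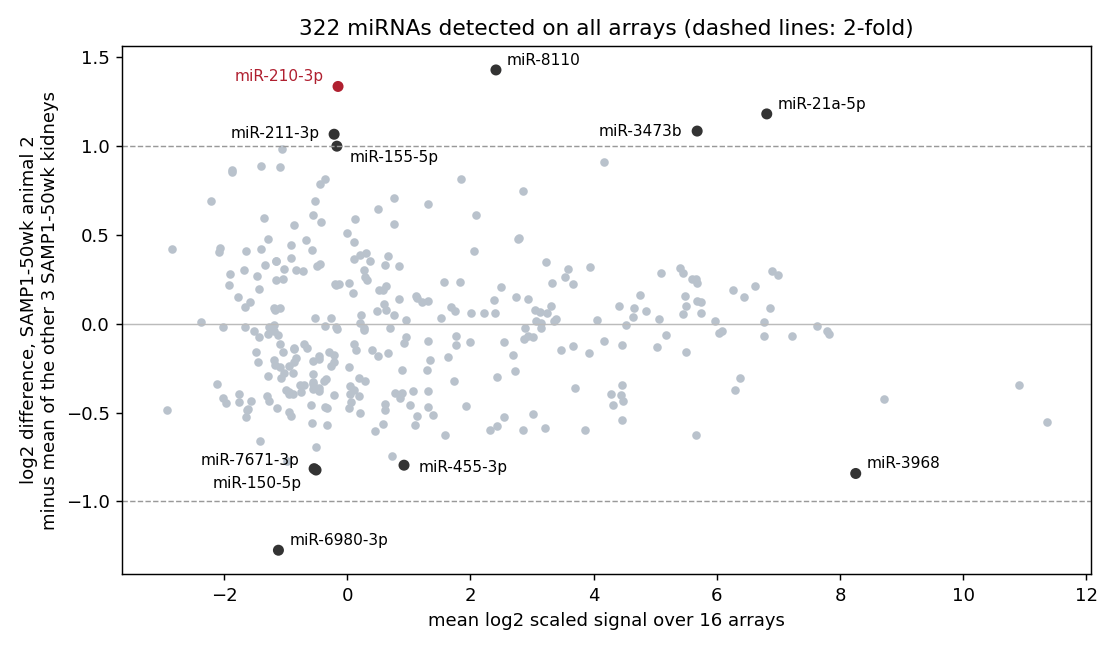
The log2 difference between SAMP1-50wk animal 2 and the mean of the other 3 SAMP1-50wk kidneys (vertical axis) against the mean log2 scaled signal over 16 arrays (horizontal axis), for 322 miRNAs detected on all arrays; dashed lines mark 2-fold. With this scaling miR-210-3p, in red at 1.34, lies second to miR-8110 at 1.43, and miR-6980-3p is lowest at -1.27. Both ranks changed after normexp background correction.

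Of the 5 miRNAs nearest to miR-210-3p in mean signal, 4 had much smaller differences in this kidney, between -0.03 and 0.23, and the other was miR-155-5p. Within groups the SD of miR-210-3p was 0.38 with animal 2 and 0.18 without it, whereas the SDs of those 5 miRNAs without that kidney were 0.10 to 0.21. Apart from 1 kidney, the spread of miR-210-3p between mice was like that of other miRNAs of its brightness.

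The miRNAs whose pattern was most like that of miR-210-3p changed with that kidney. Over the 16 arrays the highest Pearson correlation among the miRNAs detected on all arrays was that of miR-21a-5p, with r = 0.85, followed by miR-350-3p (0.77), miR-28a-5p (0.71), miR-1949 (0.71) and miR-7033-5p (0.70). For miR-21a-5p the Spearman correlation was 0.38, and over the 15 arrays without animal 2 its r was 0.22, so the likeness rested on that kidney. miR-7033-5p fell to -0.18 and miR-1949 to 0.12, whereas miR-350-3p and miR-28a-5p were at 0.58 and 0.51. Over those 15 arrays the most alike were miR-200c-3p and miR-141-3p, both at 0.74, followed by miR-744-5p (0.70), miR-200a-5p (0.70) and miR-32-5p (0.62). miR-200c-3p, miR-141-3p and miR-200a-5p belong to the miR-200 family of epithelial miRNAs. With scaling to the median of the miRNAs detected on all arrays these 5 had r of 0.69 to 0.83. The correlations describe arrays that share slides, scaling and, within a group, strain and age, and the median r of all miRNAs was -0.12 over 16 and 0.05 over 15 arrays.

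**Figure D4:**
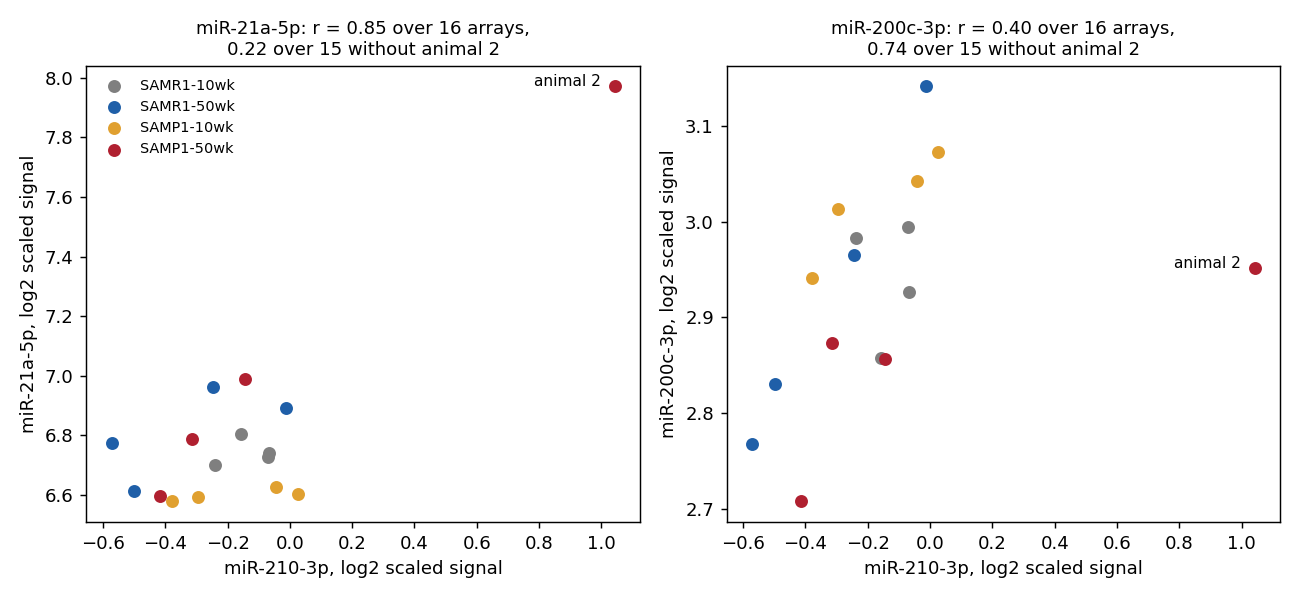
Log2 scaled signal of miR-21a-5p (left) and miR-200c-3p (right) against that of miR-210-3p; each point is 1 mouse, coloured by group. For miR-21a-5p r is 0.85 over 16 arrays and 0.22 without SAMP1-50wk animal 2, and for miR-200c-3p it is 0.40 and 0.74.

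Of 17 other miRNAs that are known to be raised by hypoxia, 11 lay above each of the other 3 kidneys in animal 2 and 5 below each, where 35.1% and 44.4% of the 322 miRNAs did so. All 17 were detected on all arrays, and their summed scaled signal was 761 in animal 2 and 551 to 607 in the other 3 kidneys. Most of that difference was miR-21a-5p, at 251 against 96.7 to 127, and without it the sums were 510 and 454 to 480. Their median difference was 0.12, against -0.02 for all miRNAs, with miR-21a-5p (1.18) and miR-155-5p (1.00) at the top and miR-181b-5p (-0.74) at the bottom. miR-26a-5p (0.27), miR-23b-3p (0.12) and miR-26b-5p (0.06), 3 of the 4 most abundant members, lay much nearer to 0. At their highest of the 16 arrays there were 2 of the 17, miR-21a-5p and miR-155-5p, where 13.0% of the 322 miRNAs were.

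Between groups, the hypoxia-raised list had 0 of 17 members called in SAMP1-10wk against SAMR1-10wk, where 1.31% of all miRNAs were called by limma, and 2 with an adjusted p under 0.05 and a smaller change, where 4.46% of all miRNAs passed by the adjusted p alone. In SAMR1-50wk against SAMR1-10wk it likewise had 0 of 17 called against 1.31%, and 2 by the adjusted p alone against 9.97%. Among these 2 was miR-155-5p, just short of the fold limit at -0.98 (adjusted p = 0.010), which passed it under 4 of the alternatives in background correction and scaling, namely the 3 scalings to the miRNAs detected on all arrays and the authors' processed values. It also had 0 of 17 called in SAMP1-50wk against SAMP1-10wk, where 2.36% of all miRNAs were. In SAMP1-50wk against SAMR1-50wk, where 5.77% of all miRNAs were called, 1 of 17 was, miR-155-5p, which was higher by 1.43 (SE 0.21, adjusted p = 0.00032 from limma, 1.18 without animal 2). It was not called after normexp background correction, where the difference was 0.33, or with the animal number as a replicate block, where the adjusted p from limma was 0.066. It was at -0.06 ± 0.09 (SD, n = 4) in young and -1.04 ± 0.38 in old SAMR1 mice, and at 0.05 ± 0.09 in young and 0.39 ± 0.50 in old SAMP1 mice. The SAMR1-50wk mice were thus the low ones and did not overlap with any other group. By the adjusted p alone, with no limit on the fold, 11 of 17 were lower in SAMP1-50wk than in SAMP1-10wk and 0 higher, against 22.3% of all miRNAs lower, and the median of the list was -0.21 against -0.15 for all miRNAs. In SAMP1-50wk against SAMR1-50wk 10 of 17 were lower and 2 higher, against 40.4% and 6.82% of all miRNAs, with medians of -0.20 and -0.21. Both counts moved with the scaling. The first ran from 0 lower with no scaling to 12 with the authors' processed values. The second was 2 lower with quantile normalization and 3 with scaling to the median of the miRNAs detected on all arrays, and it turned over with no scaling, where 0 were lower and 15 of 17 higher along with 73.5% of all miRNAs, so no direction is drawn from it. The values with no scaling keep the higher summing factor, which was found on SAMP1 arrays alone.

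The miRNAs known to repress HIF-1alpha, the oxygen-sensitive subunit of the factor that activates Mir210, were all detected on all arrays. By limma 0 of 8 were called in each of the 4 comparisons, where 1.31% to 5.77% of all miRNAs were, so a count of 0 is near the share of all miRNAs. In animal 2 their differences from the other 3 kidneys lay between -0.07 and 0.24, with a median of -0.03. miR-200b-3p (-0.04), miR-429-3p (-0.07), miR-20a-5p (0.03) and miR-20b-5p (-0.07), the most abundant members, were all near 0. By the adjusted p alone 0, 1, 4 and 3 of 8 passed in the 4 comparisons, in the order strain at 10 weeks, age in SAMR1, age in SAMP1 and strain at 50 weeks, where 4.46%, 9.97%, 28.3% and 47.2% of all miRNAs did. In the last of these 1 was higher and 2 lower, but 8 of 8 were higher with no scaling, which keeps the higher summing factor of SAMP1 arrays, along with 73.5% of all miRNAs.

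Of 10 miRNAs known from renal ischaemia and injury, 8 were bright enough to be tested, and their summed scaled signal was 308 in SAMP1-50wk animal 2 against 164 to 199 in the other 3 kidneys of the group. miR-21a-5p made up most of this sum. miR-146a-5p, a brake on inflammatory signalling, was also highest there (0.81 above the other 3), whereas miR-34a-5p differed by 0.01, miR-214-3p by 0.00 and miR-494-3p by -0.63. Of the 5 members detected on all arrays, 2 lay above each of the other 3 kidneys and 1 below each, where 35.1% and 44.4% of the 322 miRNAs did so. Of those detected on fewer arrays, miR-146b-5p (-0.59 against -2.12 to -1.28) and miR-132-3p (-0.26 against -0.92 to -0.61) lay above each, and miR-489-3p (-3.24 against -3.02 to -2.44) below. Between groups, 1 of 8 was called in SAMR1-50wk against SAMR1-10wk, where 1.31% of all miRNAs were, and 1 of 8 in SAMP1-50wk against SAMR1-50wk, where 5.77% were. miR-34a-5p, a p53-induced miRNA that rises in ageing tissue, was 2.51 ± 0.19 in SAMR1-10wk and 3.59 ± 0.16 in SAMR1-50wk (SD, n = 4), a rise of 1.08 (SE 0.10, adjusted p = 1.0e-05 from limma), and these groups did not overlap. The rise stayed between 0.77 and 1.14 under the alternatives, of which 6 of 17 put it under 2-fold or over the limit of the adjusted p. miR-132-3p, which is known to be raised in fibrotic kidney, was detected on 15 of 16 arrays. Its lowest SAMR1-50wk value, -3.18, was undetected and raised to the lowest detected signal of its array. The miRNA was -2.23 ± 0.71 in SAMR1-50wk and -0.67 ± 0.31 in SAMP1-50wk, and so higher by 1.56 in the latter (SE 0.38, adjusted p = 0.0047 from limma, 1.42 without animal 2). With 1 array left out this difference ran from 1.24 to 1.81. The same difference was 0.06, with an adjusted p of 0.200, after normexp background correction.

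Markers of other cell types were compared in that kidney too. The summed scaled signal of 8 leukocyte miRNAs was 46.7 in animal 2, 29.8 to 37.8 in the other SAMP1-50wk kidneys and 14.7 to 20.6 in the other 3 groups. Of the 6 leukocyte miRNAs detected on all arrays, limma called 4 as higher in SAMP1-50wk against SAMR1-50wk, where 1.55% of the 322 such miRNAs were called higher. In SAMP1-50wk against SAMP1-10wk 2 of 6 were, against 0.932%, and in SAMP1-10wk against SAMR1-10wk 0 of 6 were, against 0.311%. miR-342-3p, detected on 4 of 4 arrays of each SAMP1 group and on 0 SAMR1 arrays, was tested only through the groups where it is high and is left out of these counts. Of the same 6, 5 were at their highest of the 16 arrays in animal 2, where 13.0% of the 322 miRNAs were, and the sixth was miR-150-5p. Among these 5 are miR-155-5p, also counted in the hypoxia-raised list, and miR-146a-5p, also counted in the injury list. miR-342-5p was detected on 0 arrays. Of the 4 erythrocyte miRNAs on the array, which can mark blood left in the tissue, 1 was detected on all arrays, and their summed signal was 59.0 in animal 2, inside the 26.8 to 164 of the rest of its group. That miRNA, miR-451a, was called as higher in SAMP1-50wk against SAMR1-50wk and as lower in SAMR1-50wk against SAMR1-10wk, where 0.311% of the 322 miRNAs were called lower. The 6 kidney epithelium miRNAs, all detected on every array, summed to 304 in animal 2 against 295 to 327, so the tissue was kidney by its markers. The 2 endothelial miRNAs summed to 89.7 against 77.9 to 85.6 and the 5 of fibroblasts and smooth muscle to 41.9 against 32.4 to 36.6. The 5 of striated muscle summed to 1.1 against 0.7 to 0.9, and the hepatocyte miRNA miR-122-5p was detected on 0 arrays. The part of leukocytes, or of any other cell type, in the level of miR-210-3p was not tested.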

How the data were processed

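Total RNA from the renal cortex of 16 mice was labelled with Cy3 and hybridised to single-colour Agilent mouse miRNA arrays, which were read with Agilent Feature Extraction 12.0.3.1. The deposited scanner files hold the intensity of each spot and, per miRNA, the total gene signal, an intensity summed over its spots by the authors' scanner software. The authors also deposited processed log2 values, scaled to the 90th percentile of each array and set against SAMR1-10wk, which were used as an alternative. Here the total gene signal was divided by the 90th percentile of the 1881 mouse miRNAs of its array, raised to the array's lowest detected signal where below it, and taken as log2. The study's own test, a two-way ANOVA followed by Tukey's, was run as an alternative. The main test was a model of the 4 group means over 381 miRNAs, those that some group showed as detected on its 4 arrays without exception (limma 3.58.1 in R 4.3.3), with Benjamini-Hochberg adjustment. A call was an adjusted p under 0.05 with more than a 2-fold change. limma was tested on simulated data first. Exact permutation tests used scipy 1.17.1. The labels give separate animals as replicates, and no 2 arrays were identical.

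miR-210 and the miRNA lists (hypoxia-raised, HIF-1alpha repressors, renal ischaemia and injury, and the markers of 7 cell types) were chosen with earlier results of these data known. Named were both arms, members of the first 3 lists called in a comparison or among the 4 brightest, the 5 most alike over 16 and over 15 arrays, and the 5 miRNAs most above and most below the rest of the group in SAMP1-50wk animal 2. miR-181b-5p, miR-146a-5p, miR-146b-5p, miR-214-3p, miR-489-3p, miR-494-3p, miR-342-3p, miR-342-5p and miR-451a were named after their values were seen. Alternatives covered the background correction, the scaling, the filter on dim miRNAs, the test, the animal number as a block, and leaving out each array.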

Additional observations from a re-analysis of the deposited data

Results flagged for a closer look

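Groups of 4 mice were searched for a mouse far from the others, by the gap to its nearest neighbour over the range of the group against Dixon's 95% limit. This was done for 13 miRNAs (miR-210-3p, those farthest from the rest of the group in SAMP1-50wk animal 2, and the called members of the hypoxia, HIF-1alpha and injury lists), leaving out the SAMP1-50wk values that had led to the choice of a miRNA. Of 41 groups 1 was found, where chance marks about 1 in 20. It was SAMR1-10wk animal 4, high for miR-150-5p at -0.37 against -0.89 to -0.86 in the rest of its group (a gap of 0.949 of the range).

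The change with age differed between the strains by limma's interaction term for 26.8% of the 381 miRNAs at an adjusted p under 0.05, so a difference of this kind was common. It did so for 11 of 17 hypoxia-raised miRNAs (10 with a lower change in SAMP1), 2 of 8 HIF-1alpha repressors and 2 of 8 injury miRNAs. These list counts were made under the main scaling only, and their dependence on the scaling was not tested. Among the members called between groups, which share arrays with this term, SAMP1 minus SAMR1 it was 1.32 for miR-155-5p (SE 0.30, adjusted p = 0.0078), 1.53 for miR-132-3p (SE 0.53, adjusted p = 0.048) and -0.41 for miR-34a-5p (SE 0.14, adjusted p = 0.048). For miR-155-5p the term passed in 26 of 30 fits, and without SAMP1-50wk animal 2 its adjusted p was 0.0050. For miR-132-3p it passed in 6 of 29 fits and for miR-34a-5p in 9 of 30, and without that kidney the adjusted p was 0.080 and 0.057. With no scaling the term was 1.84, 2.05 and 0.10 for miR-155-5p, miR-132-3p and miR-34a-5p, which turns the last, and after normexp it was 0.30, 0.08 and -0.07. None of these 6 values passed, with adjusted p from 0.067 to 0.850 by limma.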

How the results depend on the processing

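miR-210-3p kept its side of the threshold under all 18 alternatives and all 16 omissions of an array in SAMP1-10wk against SAMR1-10wk and in SAMR1-50wk against SAMR1-10wk, as it passed in none. In the first its log2 difference ran from -0.19 to 0.23 over the alternatives, turning to 0.23 with no scaling, and from -0.11 to 0.030 with 1 array left out, turning to 0.030 without SAMP1-10wk animal 3 and to 0.0020 without animal 4. In the second it ran from -1.10 to -0.035, and from -0.31 to -0.12 with 1 array left out. The described difference of SAMP1-50wk against SAMP1-10wk ran from -0.12 to 0.37 with 1 array left out, turning to -0.12 without SAMP1-50wk animal 2, and that against SAMR1-50wk from 0.04 to 0.53, and was 1.16 with no scaling. After normexp these were 0.10 and 0.13. The excess of SAMP1-50wk animal 2 was 0.59 after normexp background correction with an offset of 50, which pulls dim signals together, and 1.92 with no scaling, and ran from 1.27 to 1.41 with 1 other kidney left out. Animal numbers recur across groups but name different mice, and the correlations of same-numbered mice ran from -0.43 to 0.21, so the numbers do not pair the samples. With the number as a replicate block, on 3 residual degrees of freedom, the differences were -0.19, -1.10, 0.07 and 0.98 in the 4 comparisons, and 1 and 0 miRNAs were called in the first and second.

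The number of miRNAs called depended on the setting. In SAMP1-10wk against SAMR1-10wk it was 5, and 1 with the processed signal, with only miRNAs detected on all arrays or with Tukey's test and Benjamini-Hochberg adjustment, 0 after normexp (79 at an unadjusted p under 0.05), 8 with no scaling, 10 with Tukey's test unadjusted and 17 with no fold limit. It was 3 to 6 with 1 array left out, and 3 without SAMR1-10wk animal 5 or SAMP1-10wk animal 4. In SAMR1-50wk against SAMR1-10wk it was 5, and 0 after normexp, with no scaling or with the block (54, 16 and 29 at an unadjusted p under 0.05 by limma), 1 with median scaling or with adjusted Tukey's tests, 2 with no filter or with only miRNAs detected on all arrays, 3 with quantile normalization or with only the 2 groups compared, and 38 with no fold limit. It was 2 to 6 with 1 array left out, with 2 or 3 without SAMR1-10wk animals 1, 4 or 7 or SAMR1-50wk animals 2, 9 or 12. The call of miR-155-5p was lost after normexp and with the block, that of miR-132-3p after normexp, with the block and with the processed signal, and that of miR-34a-5p after normexp, with the block, with no scaling and with 3 scalings to the miRNAs detected on all arrays. The causes were not tested. miR-210-5p, with no spot well above background, is limited by the array's sensitivity.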
